A study of Mus musculus with 6 samples.

Results

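Glycolysis, pyruvate handling and the tricarboxylic acid (TCA) cycle were read through 51 genes listed by symbol, from the glucose transporters to mitochondrial malate dehydrogenase. All 51 were found among the 35186 symbols counted. Each library was made from about 1000 sorted memory B cells that bind the hapten NP, taken from spleens of C57BL/6J mice. The DKO group held 3 libraries with the genotype Nix-/-Bnip3-/-, and the WT group held 3 wild-type libraries. The labels do not say how the alleles were made, how old the mice were, or whether each library had its own animal, so p-values measure the spread between these libraries, which may be technical. Nix is the protein of Bnip3l. It and Bnip3 are receptors in the outer mitochondrial membrane through which mitochondria are removed by autophagy.

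Glycolysis splits glucose into pyruvate in the cytosol. Lactate dehydrogenase turns pyruvate into lactate, and the pyruvate dehydrogenase complex turns it into acetyl-CoA, which the TCA cycle oxidises inside mitochondria. Several steps are served by isoform genes, whose products differ in tissue, regulation or place in the cell. Hypoxia-inducible factors are known to drive many glycolytic genes, pyruvate dehydrogenase kinase 1 and Bnip3, and resting lymphocytes use less glucose than activated ones.

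The libraries were shallow and differed as wholes. They held 444461 to 517057 counts in DKO and 312908 to 500527 in WT, and 67.0% to 70.4% of symbols had a count in DKO libraries against 50.7% to 52.5% in WT libraries. Over all tested genes, DKO libraries had Spearman correlations of 0.466 to 0.496 with each other, and WT libraries of 0.152 to 0.157. Pairs of a DKO and a WT library had 0.135 to 0.203, a range that takes in the WT pairs. WT libraries were thus no more like each other than like DKO libraries. Levels are given as normalized CPM: CPM over the summed counts of the tested genes, divided by a scaling factor for each library. The factors were 1.28, 1.38 and 1.28 in DKO libraries 1, 2 and 3. Those of WT libraries 1, 2 and 3 were 0.812, 0.695 and 0.785. They split by group, so scaling lowered every DKO level and raised every WT level. A single count was worth 1.84 to 2.26 normalized CPM in DKO and 3.86 to 5.25 in WT, and a count of 0 allows up to 3 counts, or 5.52 to 6.79 and 11.6 to 15.8 normalized CPM. Transcripts usually abundant in every cell were nearly missing: Actb, cytoskeletal actin, had 0, 2 and 3 counts in DKO libraries and 0 in each WT library. How the counts were made is not fully stated, so a low count here may not be a low transcript level. The targeted genes did not settle the labels. Bnip3l had 10, 16 and 41 counts in DKO libraries 1, 2 and 3 against 1, 8 and 0 in WT libraries 1, 2 and 3, and Bnip3 had 2, 24 and 11 against 25, 62 and 6. Directions below are therefore between libraries as labelled.

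Markers of the labelled cell type were sparse. Cd79a, part of the B cell receptor, had 0, 2 and 4 counts in DKO libraries and 3, 0 and 0 in WT libraries, while the B cell surface gene Ms4a1 had 42, 70 and 65 against 28, 0 and 8. The 8 B cell markers summed to 256 to 323 normalized CPM in DKO and 194 to 376 in WT. For a pair of lists the groups did not overlap. The 4 myeloid markers counted, of 5 listed, summed to 357 to 738 normalized CPM in DKO and 31.3 to 201 in WT. Lyz2 and Itgam made up most of the DKO sums, Cd68 overlapped, and Csf1r had 15, 10 and 27 counts in DKO libraries against 0, 43 and 5 in WT libraries (log2 fold change -0.89, SE 1.27); 0 of the list passed the edgeR test. The 5 erythroid markers summed to 2.26 to 19.4 in DKO and 46.4 to 115 in WT, with Hba-a2 and Hbb-bs at 0 in every library. The part of these cells in the values below was not tested, and in such bulk libraries fewer cells of a type and less RNA per cell cannot be told apart.

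**Figure D1:**
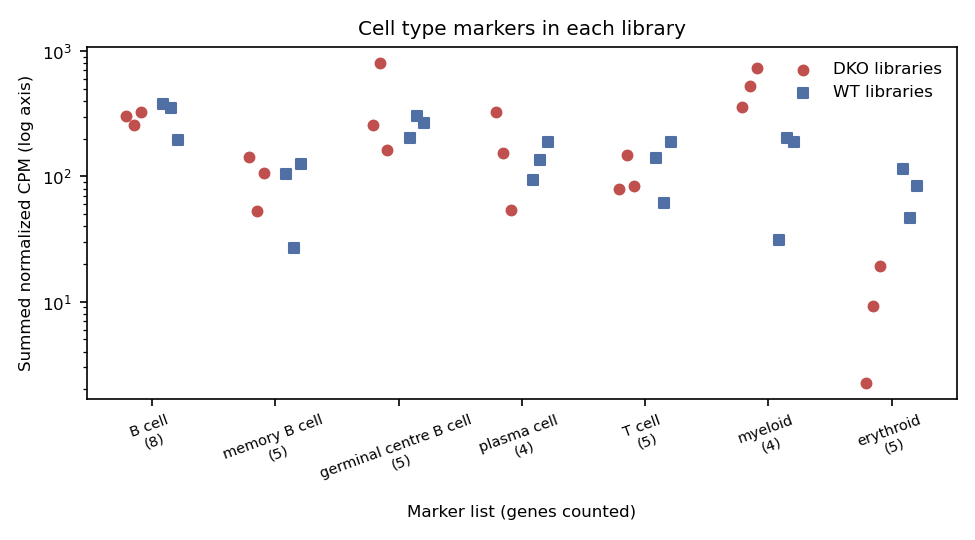
Summed normalized CPM of marker lists (log axis) in each library, DKO as circles and WT as squares, by list with the number of genes counted. Myeloid markers lay at 357 to 738 in the DKO libraries, above 31.3 to 201 in WT, and erythroid markers lay below the WT libraries.

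None of the enzymes, transporters and kinases of these pathways passed the edgeR test, and their counts were low in both groups. The 51 genes together had 572, 1107 and 875 counts in DKO libraries 1, 2 and 3, and 527, 850 and 703 in WT libraries 1, 2 and 3. These were 0.129%, 0.214% and 0.170% of all counts in DKO against 0.168%, 0.170% and 0.220% in WT, so the groups overlapped. Of the 51 genes, 4, 1 and 3 were at 0 in DKO libraries 1, 2 and 3, and 10, 11 and 10 in WT libraries 1, 2 and 3. The highest total over all 6 libraries was 404 counts, for Ldhb, and 19 genes had under 50. Per kilobase of exon, the middle one of the 50 genes with an annotated length stood at the 47.6th to 61.4th percentile of 20481 protein-coding genes in DKO libraries and at the 49.4th to 63.4th in WT libraries. Gapdh, a glycolytic enzyme gene widely used as an abundant reference transcript, ranked 4278th, 1853rd and 8515th by count in DKO libraries and 3019th, 1331st and 4457th in WT libraries.

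**Figure D2:**
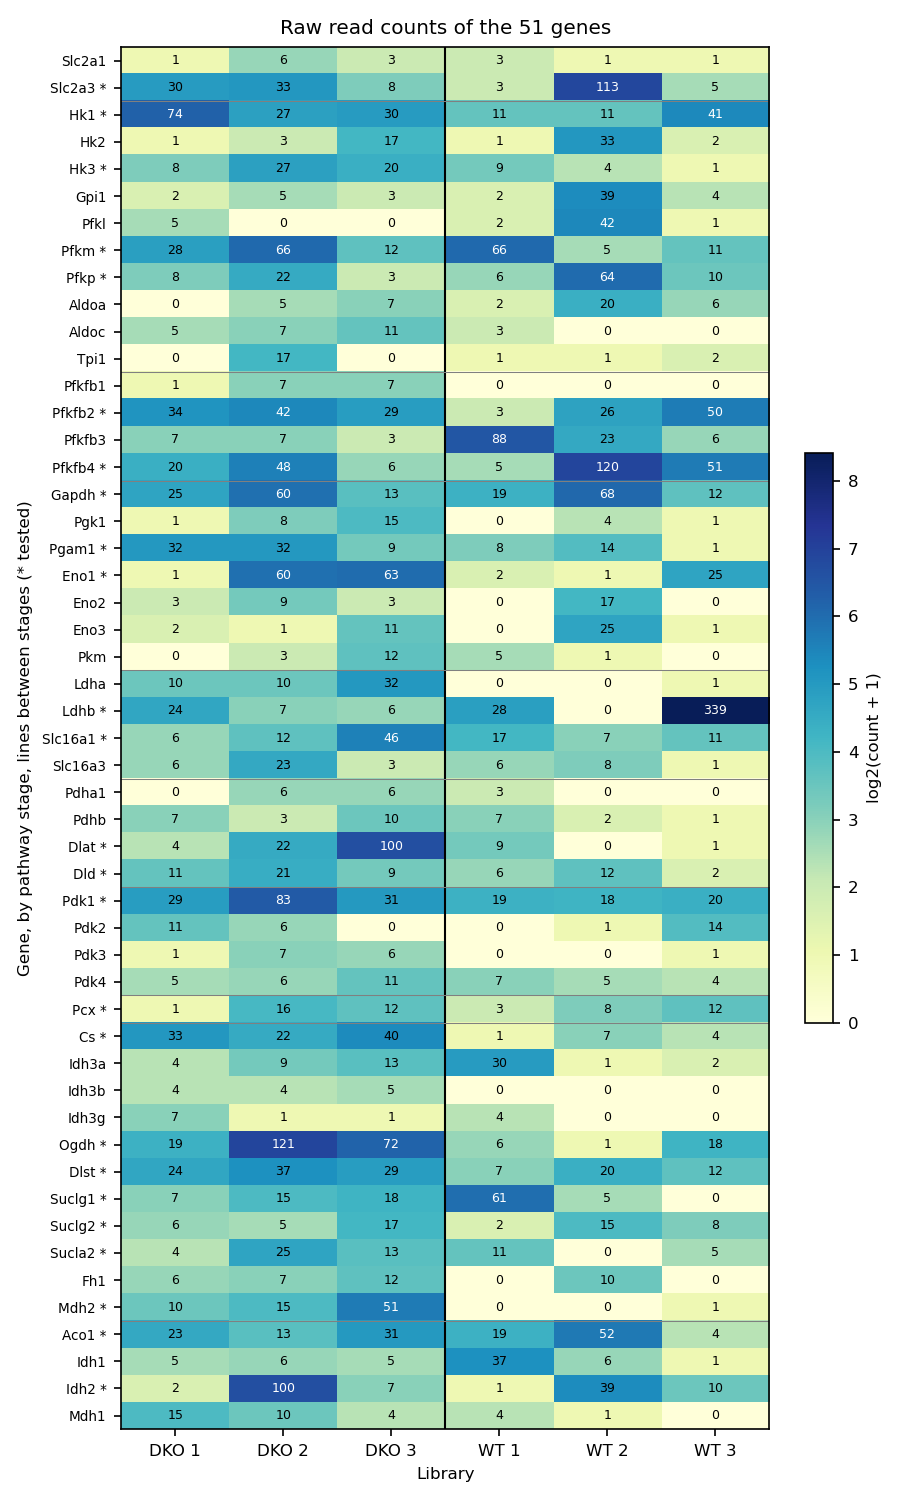
Raw read counts of the 51 genes (rows, grouped by pathway stage with lines between stages, asterisk for tested genes) in DKO and WT libraries (columns), shaded by log2(count + 1). Single libraries carry high cells, such as 339 counts of Ldhb in WT library 3 and 100 of Dlat in DKO library 3.

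Of the 51 genes, 25 had enough counts to be tested, and 26 were left out by the filter on low counts. In edgeR's quasi-likelihood test 0 of the 25 passed an adjusted p of 0.05, as did 0 (0%) of all 8895 genes tested. Of the genes with an adjusted p in DESeq2, 56 were higher (0.695%) and 198 lower (2.46%). Of the 22 of the 51 with such a p, 1 passed, Pfkfb3, which is described with its family. Log2 fold changes, DKO over WT, were above 0 for 9 of the 25 and below 0 for 16, with a median of -0.19. Of all tested genes 45.5% were above 0 and the median was -0.17. At an unadjusted p under 0.05 there was 1 of the 25 higher, Mdh2, and 1 lower, Ldhb, where 5.49% of all tested genes were higher and 6.59% lower. The groups did not overlap for 5 of the 51 higher (Pfkfb1, Ldha, Cs, Idh3b and Mdh2) and 2 lower (Gpi1 and Pfkfb3), against 9.53% higher and 3.98% lower of the genes counted at least once. Of the tested genes with no overlap, both members were higher (Cs and Mdh2), against 12.8% of all tested genes higher and 6.39% lower. Cs and Mdh2 passed the filter through DKO libraries only, so they had to differ to be tested. Without scaling factors the median of all tested genes was 0.62 and that of the 25 was 0.54. By library totals alone the groups did not overlap for 7 of the 51 higher and 1 lower, against 15.6% and 1.72% of the genes counted. Gpi1 then overlapped, and Aldoc and Dlst no longer did.

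Most values turned on single libraries. For 21 of the 51 genes (41.2%), over 50% of the summed normalized CPM lay in 1 library. Among tested genes alone this held for 8 of the 25, against 29.7% of all tested genes. The library with the highest level was a WT one for 33 of the 51, among them 15 in WT library 2 and 12 in WT library 1. Leaving out each library in turn moved the fold change of 20 of the 25 tested genes by over 1.5-fold and changed the sign of 11. Reads of overlapping genes cannot be told apart here, and 15 of the 51 shared exonic bases with another annotated gene.

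**Figure D3:**
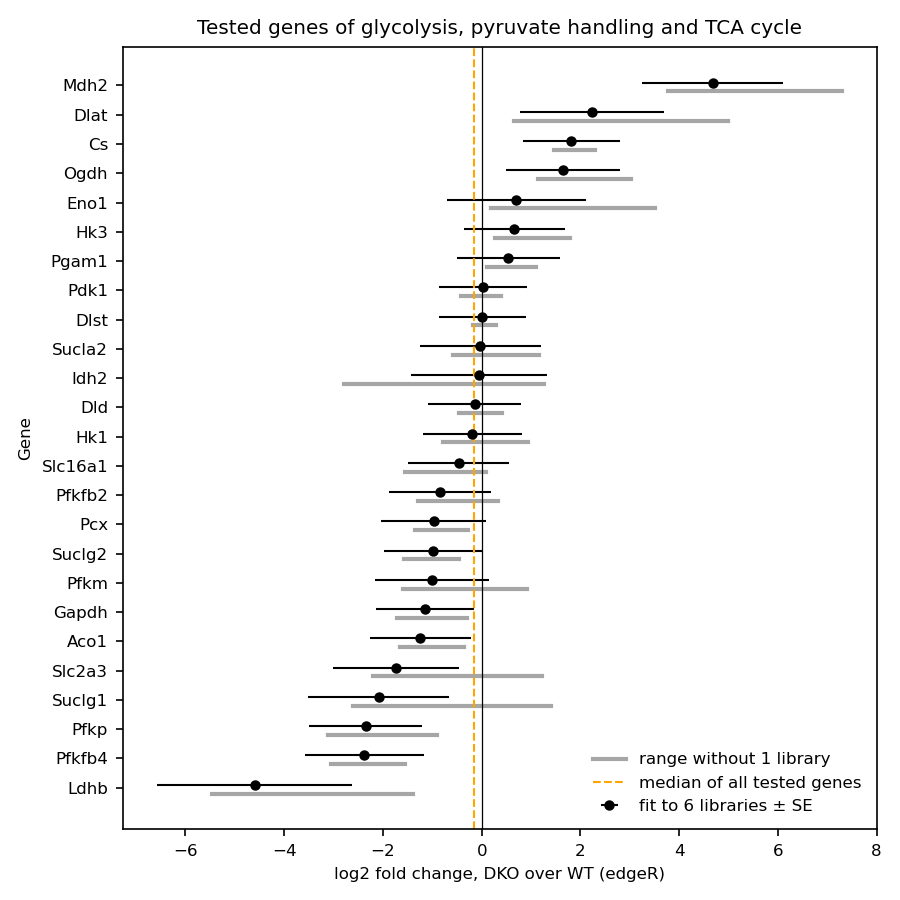
Log2 fold change, DKO over WT, of the 25 tested genes: points with bars, the edgeR fit to all 6 libraries with its SE; grey lines, the range when 1 library is left out; dashed line, the median of all tested genes (-0.17). Mdh2 at 4.68 and Ldhb at -4.60 are the ends of the scale, and 11 grey lines cross 0.

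The promoters of 4 genes on which the values below turn are shown, each as the 250 bases before an annotated start (RefSeq, GRCm38.p6), 5′ to 3′ on the gene's strand: Mdh2 with the smallest p, the subunit pair Ldha and Ldhb, and Pfkfb3. Capitals mark the core letters of the hypoxia response element, ACGTG or GCGTG on either strand. Ldha and Pfkfb3 each have a further annotated start, not shown.
Mdh2 (chr5:135778399-135778648, + strand): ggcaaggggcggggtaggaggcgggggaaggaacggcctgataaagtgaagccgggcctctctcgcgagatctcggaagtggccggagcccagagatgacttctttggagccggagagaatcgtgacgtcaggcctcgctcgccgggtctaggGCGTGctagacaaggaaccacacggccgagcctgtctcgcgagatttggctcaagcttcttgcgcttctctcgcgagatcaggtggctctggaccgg
Ldha (chr7:46845554-46845803, + strand): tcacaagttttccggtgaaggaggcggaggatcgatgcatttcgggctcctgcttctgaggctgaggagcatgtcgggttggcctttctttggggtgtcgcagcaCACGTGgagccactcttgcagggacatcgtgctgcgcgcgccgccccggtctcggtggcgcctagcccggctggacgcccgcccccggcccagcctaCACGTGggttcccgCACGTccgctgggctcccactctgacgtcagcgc
Ldhb (chr6:142507958-142508207, - strand): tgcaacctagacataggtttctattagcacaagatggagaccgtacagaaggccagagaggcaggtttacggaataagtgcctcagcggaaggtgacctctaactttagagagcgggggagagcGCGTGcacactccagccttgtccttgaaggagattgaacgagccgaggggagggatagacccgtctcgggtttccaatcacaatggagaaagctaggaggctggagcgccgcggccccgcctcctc
Pfkfb3 (chr2:11553930-11554179, - strand): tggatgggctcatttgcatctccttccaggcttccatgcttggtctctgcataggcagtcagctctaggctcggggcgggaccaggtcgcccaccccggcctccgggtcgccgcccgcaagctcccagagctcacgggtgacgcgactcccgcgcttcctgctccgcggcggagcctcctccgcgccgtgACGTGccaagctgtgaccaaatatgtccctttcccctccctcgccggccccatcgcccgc
The Ldha promoter held 5 matches, of which 4 lay in 2 copies of the E-box letters CACGTG, each read on both strands, while Mdh2, Ldhb and Pfkfb3 held 1 each. The starts not shown held 1 match for Ldha, and 3 with 1 E-box for Pfkfb3. In all, 49 of the 51 genes matched the promoter table, with 75 entries, of which 70.7% held the core letters, against 44.0% of 21263 entries of protein-coding genes and 38.6% of all 32851. CACGTG, whose letters hold the core on both strands, was in 13.3% of the 75 entries and 6.63% of the protein-coding ones. A match is a run of letters only.

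Glucose entry and the upper steps of glycolysis showed no gene that passed the test. Slc2a1, the GLUT1 transporter, had 1, 6 and 3 counts in DKO libraries 1, 2 and 3 against 3, 1 and 1 in WT libraries, too few to test. Slc2a3, the high-affinity transporter GLUT3 (chromosome 6, 122727809 to 122801640, minus strand, mm10), had 30, 33 and 8 counts in DKO libraries and 3, 113 and 5 in WT libraries. WT library 2 stood alone at 437 normalized CPM, and the groups overlapped. In edgeR Slc2a3 had a log2 fold change of -1.73 (SE 1.28, adjusted p = 0.569), and of 1.22 without WT library 2.

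The hexokinases trap glucose as its phosphate. Hk1, the broadly expressed form, had 74, 27 and 30 counts in DKO libraries and 11, 11 and 41 in WT libraries (log2 fold change -0.19, SE 1.00, or 0.94 without WT library 3). Hk2, the inducible form, had 1, 3 and 17 against 1, 33 and 2. Hk3, the form of myeloid cells, had 8, 27 and 20 counts in DKO libraries and 9, 4 and 1 in WT libraries (log2 fold change 0.66, SE 1.02, edgeR adjusted p = 0.802), with groups that overlapped, and 1.78 without WT library 1. The summed myeloid markers, given above, were higher in the DKO libraries, though Csf1r was not, and their part in Hk3 was not tested. Per kilobase of exon no hexokinase led throughout: Hk1 led in 1 DKO and 1 WT library, Hk2 in 1 WT library, and Hk3 in 2 DKO libraries and 1 WT library.

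The next steps make fructose 1,6-bisphosphate and split it. Gpi1, glucose-6-phosphate isomerase, had 2, 5 and 3 counts in DKO libraries and 2, 39 and 4 in WT libraries, or 6.51 ± 2.42 against 60.7 ± 78.1 normalized CPM (SD, n = 3 each). Its groups did not overlap, but DKO library 2 at 9.20 and WT library 1 at 10.4 were about 1 count apart. The phosphofructokinases, which commit sugar to glycolysis, had overlapping groups for each isoform gene. Pfkl, the liver type, had 5, 0 and 0 counts in DKO libraries and 2, 42 and 1 in WT libraries, and was not tested. Pfkm, the muscle type, had 28, 66 and 12 against 66, 5 and 11 (log2 fold change -1.01, SE 1.16, or 0.93 without WT library 1). It led the isoforms per kilobase in 3 DKO libraries and 2 WT libraries.

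Pfkp, the platelet type (chromosome 13, 6579768 to 6648777, minus strand), had 8, 22 and 3 counts in DKO libraries and 6, 64 and 10 in WT libraries. Its groups overlapped, with a log2 fold change of -2.35 (SE 1.14, edgeR adjusted p = 0.419), and -0.91 without WT library 2. The gene shares exonic bases with Pitrm1 on the other strand, which had 2, 3 and 7 counts in DKO libraries and 26, 842 and 2 in WT libraries, with its peak in the same WT library 2. Whether Pitrm1 reads were counted to Pfkp was not tested. Aldoa, the main aldolase, had 0, 5 and 7 counts against 2, 20 and 6, Aldoc, the brain form, 5, 7 and 11 against 3, 0 and 0, and Tpi1, triose-phosphate isomerase, 0, 17 and 0 against 1, 1 and 2. Aldoc, at 23 counts against 3 over the groups, had a ratio of 3.27 (exact 95% counting interval 0.988 to 17). These counts were too low to test.

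The enzymes that set fructose 2,6-bisphosphate, the allosteric activator of phosphofructokinase, had summed shares of all counts that did not overlap between groups. The 4 PFKFB genes together took 0.0139%, 0.0201% and 0.00874% of all counts in DKO libraries 1, 2 and 3, against 0.0307%, 0.0338% and 0.0335% in WT libraries 1, 2 and 3. All 3 DKO libraries lay below all 3 WT libraries on this scale, at 0.0143% ± 0.00569 against 0.0326% ± 0.00170 (SD, n = 3 each), and on the normalized CPM scale. Of the 10 stages this was the 1 whose shares did not overlap, seen after the values were known and given without a test. Whether 1 of 10 is more than 3 libraries against 3 give by chance was not tested. By itself only Pfkfb3 of the 4 genes was lower without overlap, while Pfkfb1 was higher and Pfkfb2 and Pfkfb4 overlapped. On the normalized CPM scale the upper glycolysis genes did not overlap either. They were at 296, 329 and 199 in DKO libraries against 538, 846 and 410 in WT libraries. Scaling lowers DKO against WT libraries, and as shares of all counts these genes overlapped. The PFKFB sum rested on different genes in the WT libraries: Pfkfb3 in WT library 1, Pfkfb4 in WT library 2, and Pfkfb4 with Pfkfb2 in WT library 3.

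Pfkfb3, the inducible form with high kinase activity (chromosome 2, 11471433 to 11554077, minus strand), had 7, 7 and 3 counts in DKO libraries and 88, 23 and 6 in WT libraries. That is 15.8, 12.9 and 5.81 normalized CPM in DKO against 460, 88.9 and 31.5 in WT, with no overlap, also without scaling factors. By library totals alone, however, DKO library 1 at 15.7 CPM and WT library 3 at 18.8 CPM were about 1 count apart. The edgeR filter left it out. DESeq2 gave a log2 fold change of -4.06 with an adjusted p of 0.0469, whereas edgeR gave adjusted p-values of 0.223 with no filter and 0.352 with a mean CPM of at least 10. With WT library 3 or any DKO library left out it passed the filter, which then asked for fewer libraries. Its log2 fold changes were then -4.47 to -3.62, with edgeR adjusted p-values of 0.264 to 0.738. Without WT library 1, which held 88 of its counts, or WT library 2, it was filtered out.

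Pfkfb4 had 20, 48 and 6 counts in DKO libraries and 5, 120 and 51 in WT libraries, where WT library 1 lay within the DKO range. In edgeR it had a log2 fold change of -2.38 (SE 1.21, adjusted p = 0.432), and -1.55 without WT library 2. Pfkfb2, a form under control by phosphorylation, had 34, 42 and 29 counts in DKO libraries and 3, 26 and 50 in WT libraries. Its DKO libraries were close together at 70.1 ± 12.1 normalized CPM, against 126 ± 125 in WT (SD, n = 3 each; log2 fold change -0.84, SE 1.04, or 0.33 without WT library 3). Pfkfb1, the liver form, lay the other way, with 1, 7 and 7 counts in DKO libraries and 0 in each WT library. Its DKO mean of 9.57 normalized CPM lay below what a count of 0 allows in a single WT library. Over the 3 WT libraries pooled, 0 counts allow up to 4.68 normalized CPM. The DKO mean was 2.04 times that limit, which covers counting error in the WT libraries only and not in the DKO counts.

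**Figure D4:**
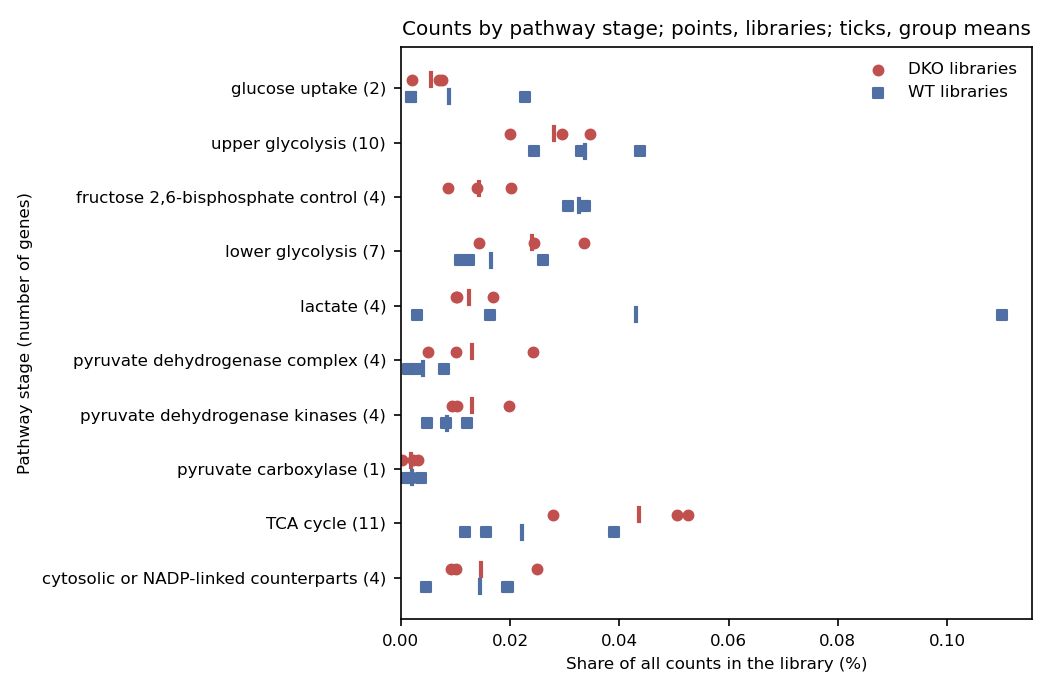
Share of all counts in a library (percent) taken by the genes of each pathway stage, number of genes in brackets: circles, DKO libraries; squares, WT libraries; ticks, group means. The fructose 2,6-bisphosphate genes are the stage with no overlap, and the WT mean for lactate rests on 0.110% in WT library 3.

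The lower steps of glycolysis, from glyceraldehyde phosphate to pyruvate, had values in both directions. Gapdh (chromosome 6, 125161715 to 125166467, minus strand) had 25, 60 and 13 counts in DKO libraries and 19, 68 and 12 in WT libraries. Counts were alike, while the normalized levels were 64.1 ± 43.1 against 142 ± 106 CPM (SD, n = 3 each). The edgeR estimate was a log2 fold change of -1.14 (SE 0.99, adjusted p = 0.641), and -0.29 without WT library 2. With all libraries but no scaling factors it was also -0.29. Pgam1, phosphoglycerate mutase, had 32, 32 and 9 counts against 8, 14 and 1 (log2 fold change 0.54, SE 1.04). Eno1, the widely expressed enolase, had 1, 60 and 63 counts in DKO libraries and 2, 1 and 25 in WT libraries, so that both groups held a library near 0. In edgeR it had a log2 fold change of 0.70 (SE 1.41, adjusted p = 0.858), or 3.51 without WT library 3.

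The other genes of these steps were not tested. Eno2, the neuronal enolase, had 3, 9 and 3 counts against 0, 17 and 0, and Eno3, the muscle enolase, had 2, 1 and 11 against 0, 25 and 1. Pgk1, phosphoglycerate kinase, which makes ATP, had 1, 8 and 15 counts in DKO libraries and 0, 4 and 1 in WT libraries. Pkm, the pyruvate kinase of most tissues, had 0, 3 and 12 against 5, 1 and 0. Several of these genes have processed copies elsewhere in the genome, so their counts are uncertain. Among named relatives, Eno1b had at most 4 counts in a library, Pgk1-rs7 at most 1 and Pgk2 18 in WT library 2.

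The subunit genes of lactate dehydrogenase, which make up the mixed tetramers of the enzyme, had unlike counts: Ldha was apart between groups and Ldhb overlapped. Ldha, the muscle-type subunit (chromosome 7, 46841475 to 46855627), had 10, 10 and 32 counts in DKO libraries and 0, 0 and 1 in WT libraries. All DKO libraries lay above all WT libraries, at 34.3 ± 24.0 against 1.75 ± 3.03 normalized CPM (SD, n = 3 each), a ratio of pooled levels of 22.2 (exact 95% counting interval 3.81 to 893). The gene was left out by the filter. With no filter edgeR gave a log2 fold change of 4.44 and an adjusted p of 0.296, and DESeq2 gave it no adjusted p. With DKO library 2 or any WT library left out it passed the filter, which then asked for fewer libraries. Its log2 fold change was 3.59 without WT library 2 and 3.77 without WT library 1. It was 4.52 without DKO library 2 and 6.78 without WT library 3 (edgeR adjusted p 0.264 to 0.738 over these fits). Ldha-ps2, named as a pseudogene of Ldha, had 28, 6 and 15 counts in DKO libraries and 0 in each WT library, so reads may have been divided between these copies.

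Ldhb, the heart-type subunit (chromosome 6, 142490249 to 142507957, minus strand), had 24, 7 and 6 counts in DKO libraries and 28, 0 and 339 in WT libraries. The WT libraries ran from 0 to 1780 normalized CPM and enclosed the DKO range of 11.6 to 54.3. In edgeR it had a log2 fold change of -4.60 (SE 1.98, adjusted p = 0.404), and -1.39 without WT library 3. Per kilobase of exon Ldhb led Ldha in 2 of 3 DKO libraries and 2 of 3 WT libraries. Ldha led in DKO library 3, and WT library 2 had 0 counts of both, so neither form led there. Of the lactate and pyruvate transporters, Slc16a1 (MCT1) had 6, 12 and 46 counts against 17, 7 and 11, with a log2 fold change of -0.46 (SE 1.02), or -1.55 without DKO library 3. Slc16a3 (MCT4), known for lactate export, had 6, 23 and 3 against 6, 8 and 1.

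**Figure D5:**
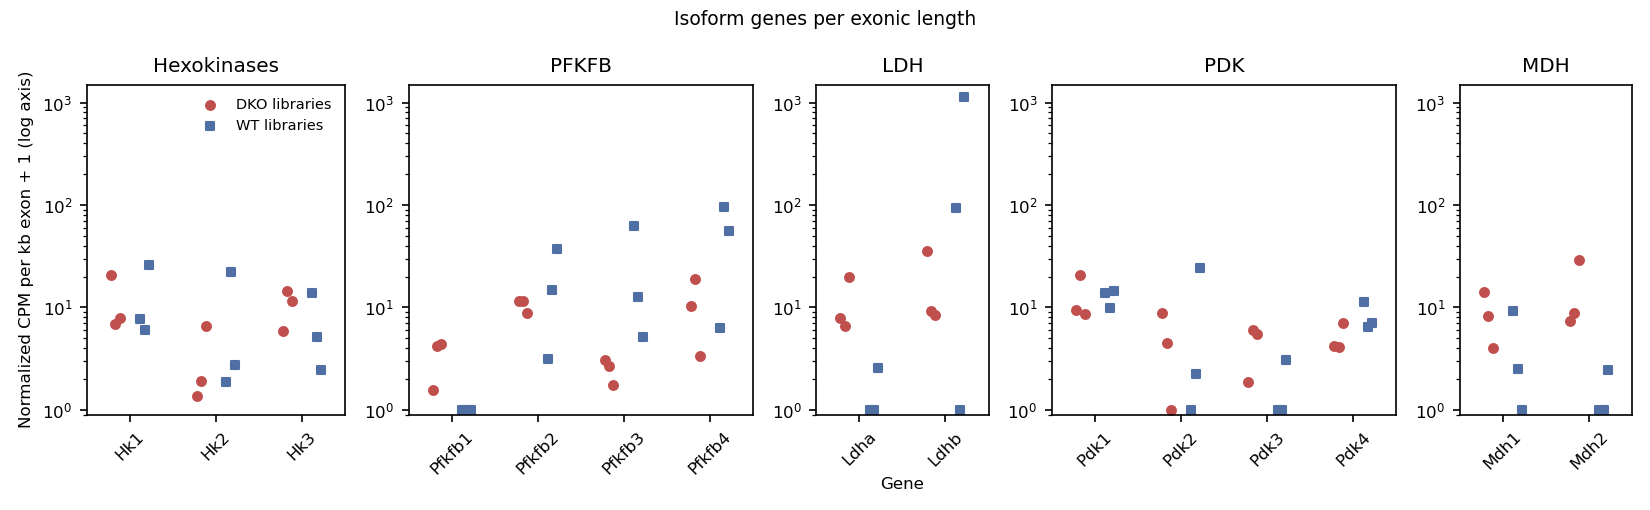
Normalized CPM per kilobase of exon plus 1 (log axis) for isoform genes of hexokinase, PFKFB, lactate dehydrogenase (LDH), pyruvate dehydrogenase kinase (PDK) and malate dehydrogenase (MDH): circles, DKO libraries; squares, WT libraries. Pfkfb3 lies lower and Ldha and Mdh2 higher in all 3 DKO libraries, while Ldhb in WT spans from 0 to 1134 before 1 is added.

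The pyruvate dehydrogenase complex gates entry of pyruvate carbon into the cycle. Its genes had 22, 52 and 125 counts in DKO libraries and 25, 14 and 4 in WT libraries, or 0.0131% ± 0.0100 against 0.00401% ± 0.00353 of all counts (SD, n = 3 each), with groups that overlapped. Dlat, the acetyltransferase core, had 4, 22 and 100 counts in DKO libraries and 9, 0 and 1 in WT libraries. Its log2 fold change of 2.23 (SE 1.45, edgeR adjusted p = 0.521) ran from 0.65 without DKO library 3 to 5.0 without WT library 1. Dld, the dehydrogenase shared with the oxoglutarate complex, had 11, 21 and 9 counts against 6, 12 and 2 (log2 fold change -0.14, SE 0.94). Pdha1 and Pdhb, the subunits of the first enzyme, had 0, 6 and 6 and 7, 3 and 10 counts in DKO libraries, and 3, 0 and 0 and 7, 2 and 1 in WT libraries.

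The kinases that switch the complex off were led by Pdk1. It had 29, 83 and 31 counts in DKO libraries and 19, 18 and 20 in WT libraries. After scaling this was 92.8 ± 52.0 against 91.3 ± 19.0 normalized CPM (SD, n = 3 each; log2 fold change 0.03, SE 0.89, edgeR adjusted p = 0.996). Per kilobase Pdk1 led the kinases in 3 of 3 DKO libraries and 2 of 3 WT libraries, Pdk2 leading in WT library 3. Pdk2 had 11, 6 and 0 counts against 0, 1 and 14, Pdk3 1, 7 and 6 against 0, 0 and 1, and Pdk4, known for its response to fasting, 5, 6 and 11 against 7, 5 and 4. Pcx, pyruvate carboxylase, which refills oxaloacetate, had 1, 16 and 12 against 3, 8 and 12 (log2 fold change -0.97, SE 1.06, or -0.30 without DKO library 1 and -0.27 without WT library 3).

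The TCA cycle genes took 0.0279%, 0.0505% and 0.0526% of all counts in DKO libraries and 0.0390%, 0.0118% and 0.0156% in WT libraries, with WT library 1 inside the DKO range. Of the 7 tested, 4 lay above 0 and 3 below, with a median of 0.01. Mdh2, mitochondrial malate dehydrogenase (chromosome 5, 135778480 to 135790398), had 10, 15 and 51 counts in DKO libraries and 0, 0 and 1 in WT libraries, with no overlap. The ratio of pooled levels was 32.4 (exact 95% counting interval 5.65 to 1297), and edgeR fitted a log2 fold change of 4.68 (SE 1.43, adjusted p = 0.390), or 3.77 without DKO library 3 and 7.31 without WT library 3. DESeq2 gave it no adjusted p.

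Cs, citrate synthase, which starts the cycle (chromosome 10, 128337734 to 128362479), had 33, 22 and 40 counts in DKO libraries and 1, 7 and 4 in WT libraries. The groups did not overlap, at 64.2 ± 20.6 against 17.8 ± 11.3 normalized CPM (SD, n = 3 each). In edgeR it had a log2 fold change of 1.81 (SE 0.99, adjusted p = 0.455), which ran from 1.47 to 2.30 with any 1 library left out. Of the 5 tested genes with the highest fold changes, Cs was the 1 that no single library moved by over 1.5-fold. Cs, like Mdh2, passed the filter through DKO libraries only and had to differ to be tested, so these values carry that limit. Ogdh, of the oxoglutarate dehydrogenase complex, had 19, 121 and 72 counts in DKO libraries and 6, 1 and 18 in WT libraries (log2 fold change 1.65, SE 1.16, edgeR adjusted p = 0.552, or 3.03 without WT library 3). Dlst, the succinyltransferase of the same complex, had 24, 37 and 29 against 7, 20 and 12, or 59.5 ± 7.50 against 59.0 ± 20.7 normalized CPM (SD, n = 3 each; log2 fold change 0.01, SE 0.88).

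The middle and end of the cycle were sparse. Suclg1, the shared subunit of succinyl-CoA ligase, had 7, 15 and 18 counts in DKO libraries and 61, 5 and 0 in WT libraries. Its log2 fold change of -2.09 (SE 1.42, edgeR adjusted p = 0.542) was 1.40 without WT library 1. Of its partner subunits, Suclg2, of the GTP-forming enzyme, had 6, 5 and 17 counts against 2, 15 and 8 (log2 fold change -0.99, SE 1.00, or -1.57 without DKO library 3), and Sucla2, of the ATP-forming enzyme, 4, 25 and 13 against 11, 0 and 5 (-0.02, SE 1.23, or 1.16 without WT library 1). Of the subunits of NAD-linked isocitrate dehydrogenase, Idh3a had 4, 9 and 13 counts in DKO libraries and 30, 1 and 2 in WT libraries, and Idh3g had 7, 1 and 1 against 4, 0 and 0. Idh3b had 4, 4 and 5 counts in DKO libraries and 0 in each WT library. Its DKO mean of 8.70 normalized CPM was likewise below what a count of 0 allows in a single WT library. It was 1.86 times the 4.68 allowed over the pooled WT libraries, a limit that again leaves out counting error in the DKO counts. Fh1, fumarase, had 6, 7 and 12 against 0, 10 and 0.

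Enzymes that run related reactions outside the cycle gave no pattern by genotype. Aco1, cytosolic aconitase and an iron-sensing RNA-binding protein, had 23, 13 and 31 counts in DKO libraries and 19, 52 and 4 in WT libraries (log2 fold change -1.24, SE 1.02, edgeR adjusted p = 0.618, or -0.36 without WT library 2). Idh1, the cytosolic NADP-linked isocitrate dehydrogenase, had 5, 6 and 5 counts in DKO libraries and 37, 6 and 1 in WT libraries. Idh2, its mitochondrial counterpart, had 2, 100 and 7 against 1, 39 and 10, with single high libraries in both groups. Its log2 fold change of -0.05 (SE 1.37) ran from -2.80 without DKO library 2 to 1.26 without WT library 2. Mdh1, cytosolic malate dehydrogenase, had 15, 10 and 4 counts in DKO libraries and 4, 1 and 0 in WT libraries.

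Of 52 further genes of the surrounding pathways, 51 were counted and 26 tested, and 0 passed the edgeR test. Of the 26, 15 lay above 0 and 11 below, with a median of 0.27, where 45.5% of all tested genes lay above 0. At an unadjusted p under 0.05, 4 were higher and 2 lower, against 5.49% and 6.59% of all tested genes. The 4 higher, Pdpr, Sdhc, Acly and Egln1, passed the filter through DKO libraries only, as did Me2. Ppargc1a, 1 of the 2 lower, passed through WT libraries only. These genes therefore had to differ to be tested, and their fold changes and lack of overlap below carry that limit. In the list for the rest of the cycle and pyruvate entry, 6 of 7 tested genes lay above 0 (median 0.71). Pdpr, the regulatory subunit of the pyruvate dehydrogenase phosphatase that opposes the PDK enzymes, had 56, 38 and 71 counts in DKO libraries and 4, 5 and 1 in WT libraries, with no overlap (log2 fold change 2.84, SE 1.01, edgeR adjusted p = 0.390). Sdhc, a membrane anchor of succinate dehydrogenase, had 72, 124 and 11 counts against 4, 5 and 2, also with no overlap (log2 fold change 2.99, SE 1.12). Mpc2, of the mitochondrial pyruvate carrier, had 13, 92 and 111 counts in DKO libraries and 19, 709 and 1 in WT libraries (log2 fold change -2.78, SE 1.89).

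In the anaplerosis and malate-aspartate shuttle list 3 of 6 tested genes lay above 0 (median 0.38). Acly, which splits exported citrate into acetyl-CoA, had 81, 88 and 45 counts in DKO libraries and 0, 10 and 6 in WT libraries, with no overlap (log2 fold change 2.59, SE 1.16, edgeR adjusted p = 0.411). Me2, the mitochondrial malic enzyme, had 13, 48 and 15 counts against 1, 7 and 3, likewise apart (log2 fold change 1.57, SE 1.02). Me3, another malic enzyme, was at -0.21 (SE 0.88), with overlap. Of the gluconeogenesis and branch list 1 of 4 lay above 0 (median -0.93). Gpd2, the mitochondrial glycerol-3-phosphate dehydrogenase, had 13, 16 and 11 counts in DKO libraries and 49, 19 and 13 in WT libraries, apart after scaling (log2 fold change -2.29, SE 0.98, edgeR adjusted p = 0.403). Pgm1, a phosphoglucomutase, was at -1.32 (SE 1.00). Of the pentose phosphate list 1 of 2 lay above 0, with Pgd at 1.03 (SE 1.06) and Tkt, transketolase, at -1.71 (SE 1.11).

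Among the regulators 4 of 7 tested genes lay above 0 (median 0.05). Egln1, the prolyl hydroxylase that marks hypoxia-inducible factors for decay when oxygen is present, had 148, 14 and 131 counts in DKO libraries and 2, 5 and 0 in WT libraries, with no overlap (log2 fold change 4.27, SE 1.36, edgeR adjusted p = 0.390). Ppargc1a, a coactivator known for driving the formation of mitochondria, had 5, 3 and 9 counts in DKO libraries and 46, 50 and 10 in WT libraries, with no overlap (log2 fold change -3.79, SE 1.07, edgeR adjusted p = 0.390). Hif1a, a hypoxia-inducible factor, had 8, 11 and 39 counts against 10, 0 and 7 (log2 fold change 0.38, SE 1.21). Txnip, an inhibitor of glucose uptake, was at -0.74 (SE 1.19).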

How the data were processed

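Raw read counts per gene symbol were deposited by the authors as 1 table with 35186 symbols and 6 columns. Per the submitters' processing notes, CASAVA, STAR, edgeR, R 3.6.3 and mm10 were used, without stated roles; counting tool, strand setting and annotation were not stated in the labels or file header. Per the labels' protocols, cDNA libraries were enriched for polyadenylated transcripts.

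The test was that of edgeR 4.0.16 in R 4.3.3, with filterByExpr at a minimum count of 10 (21.2 CPM in at least 3 libraries), TMM scaling, robust quasi-likelihood F test of DKO against WT with no covariate, and Benjamini-Hochberg adjustment over the 8895 genes kept, at a threshold of 0.05. With 1 library left out, the filter was run anew and asked for as many libraries as the smaller group held. The biological coefficient of variation was 0.915. Each SE was taken from a fold change and its F statistic (|log2 fold change| / √F). Ratios with intervals pool counts over a group, at a confidence of 95%; these intervals, and the limits for a count of 0, cover counting error only. The steps were also run on simulated counts in which all genes shared a common dispersion, which does not show how they perform on these libraries. Lengths and positions are from GENCODE vM21 (mm10) by symbol (88.2% of symbols had 1 gene; Aldoa had more). DESeq2 1.42.0 and Python 3.11.15 with scipy 1.17.1 were also used.

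The genes, lists and the naming rule were chosen with earlier results of these data known. Named with values were genes with an unadjusted p under 0.05, the 5 with the smallest p in each direction, those whose groups did not overlap, isoform families, and up to 2 in each direction from each list of further genes, of which some are not reported here. Counts of the remaining genes complete the account; which details to give for them was chosen after their values were seen. Alternatives were other scalings, filters, DESeq2, the replicate number as a block, and each library left out. Correlations between libraries run across genes, which are not independent replicates.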

Additional observations from a re-analysis of the deposited data

How the results depend on the processing

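The count of 0 genes higher and 0 lower in all 8895 held in edgeR under other scalings, a mean CPM of at least 10 and the replicate block, and with each library left out (0 to 0 in both directions). With no filter edgeR called 22 higher and 108 lower, and DESeq2 called 56 higher and 198 lower; the cause was not tested. Over the 25 genes the median, -0.19, was 0.13 with no filter and 0.54 without scaling factors, and ran from -0.55 to 0.14 with 1 library left out. The number above 0, 9 of 25, was 14 without scaling factors and 9 to 13 with 1 library left out. With 1 library left out Slc2a3 (-1.73 with all) ran from -2.20 to 1.22, the highest being without WT library 2, and Suclg1 (-2.09 with all) from -2.60 to 1.40, the highest being without WT library 1.

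Whether the replicate numbers pair the libraries cannot be told from these counts. Same-numbered libraries had correlations of their deviations of 0.0234, 0.0282 and 0.0369 over 8895 genes. Differently numbered ones had -0.0251 to -0.0041, so each library correlated best with its own number, but all values were small. With the replicate block the median was -0.10, 9 of the 25 lay above 0, and the smallest adjusted p among them was 0.673, for Mdh2. Depth limits the precision of these values, as 1 count was worth up to 5.25 normalized CPM. Actb had 0 to 3 counts in libraries of 312908 to 517057, and the cause was not tested. What a level means here is therefore uncertain beyond counting error.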
